A study of Rattus norvegicus with 6 samples.

Results

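The genes described here are 10 that carry out the uptake, storage and export of iron or control these steps. They are the transferrin receptor Tfrc, transferrin Tf, the ferritin subunits Fth1 and Ftl1, the iron importer Slc11a2, the iron exporter Slc40a1, the iron regulatory proteins Aco1 and Ireb2, hepcidin (Hamp) and Hfe. They were taken by name out of 17051 genes in the files, by a rule that uses no measured value but was set with earlier results of these data known. Of the 10 genes, 9 were listed under these symbols, and Ftl1 was listed under its older symbol Ftl with the accession that RefSeq gives for Ftl1. A gene was tested where 1 or more rats reached 30 estimated counts, which left 11553 genes and 9 of the 10 iron genes, all but Hamp.

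Kidney RNA was sequenced from 6 male Sprague Dawley rats, each as a library of its own. The 3 rats of the AL group (rats 61, 71 and 88) had the normal diet, standard chow without restriction. The 3 rats of the HD group (rats 64, 67 and 69) had the hyperammonemic diet, chow powder with an added amino acid mixture modelled on hemoglobin, for a week, and the rats of the study then had surgery under isoflurane with an infusion to measure renal blood flow. The age of the rats and the iron content of the diets are not given in the sources used here, and the methods name the piece of kidney taken only for RNA used in qPCR. The summed estimated counts ranged from 12499945 to 30466461 per rat. The comparison of HD with AL asks here whether the transcripts of iron handling differ between the diets.

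Cells take up iron bound to transferrin through the transferrin receptor, and the importer Slc11a2 then carries ferrous iron out of the endosome. In the kidney, iron and transferrin that pass the glomerular filter are recovered from the tubular fluid, mostly in the proximal tubule. Surplus iron is stored in ferritin, a shell of heavy and light subunits, or leaves through ferroportin (Slc40a1), which the liver hormone hepcidin removes from the membrane. When iron is scarce, the regulatory proteins Aco1 and Ireb2 bind iron-responsive elements in messenger RNA. This binding blocks translation of ferritin and ferroportin and stabilizes the transcript of the transferrin receptor, so part of the control of these genes is not seen in transcript levels.

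The sequences before the start of transcription of the uptake receptor and of the exporter are shown because these genes stand at the entry and the exit of the pathway. RefSeq windows of 250 bases were at hand for 7 of the 10 genes. For Fth1, Ftl1 and Hfe none is shown. The letters ACGTG, the core of the element that hypoxia-inducible factors bind, were searched on both strands and are in capitals. They were in 16.6% of the 33469 windows of the table and in the window of 1 of the 7 genes, Tfrc, where the first base lies at position -31 from the start. Both windows are in build GRCr8 on the minus strand, at chr11:81690319-81690568 for Tfrc and chr9:55543461-55543710 for Slc40a1, and are written 5′ to 3′.
Tfrc: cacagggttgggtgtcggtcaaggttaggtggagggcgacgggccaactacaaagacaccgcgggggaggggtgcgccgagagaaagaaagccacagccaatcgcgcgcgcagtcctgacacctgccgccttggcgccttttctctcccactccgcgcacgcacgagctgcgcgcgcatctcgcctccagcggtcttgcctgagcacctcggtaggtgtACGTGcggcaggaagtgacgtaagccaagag
Slc40a1: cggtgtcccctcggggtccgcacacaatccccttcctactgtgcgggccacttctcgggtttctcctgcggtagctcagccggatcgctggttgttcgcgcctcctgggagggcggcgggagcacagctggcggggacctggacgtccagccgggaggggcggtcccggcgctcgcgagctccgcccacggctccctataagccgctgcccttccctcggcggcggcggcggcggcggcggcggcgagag

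The levels of the genes spanned several orders of magnitude. They were compared per transcript length as TPM, the share of all transcripts scaled to a fixed total, summed over the transcripts of a gene. Fth1 had 10777 ± 1421 TPM (SD over 6 rats, n = 6) and Ftl1 5900 ± 1207. The other genes followed far below, Aco1 with 194 ± 35.2 TPM, Tf with 114 ± 39.3, Slc11a2 with 78.4 ± 16.4 and Tfrc with 25.1 ± 4.72. Slc40a1 had 16.7 ± 2.84 TPM, Ireb2 13.8 ± 3.33 and Hfe 2.07 ± 0.691. The ranges over the rats overlapped between Aco1 and Tf, between Tf and Slc11a2, between Tfrc and Slc40a1 and between Slc40a1 and Ireb2. The other neighbors in this order did not overlap. Within each rat, Tfrc was above Slc40a1, and Slc40a1 was above Ireb2. The order of Aco1 and Tf was reversed in rat 61, and that of Tf and Slc11a2 in rat 69. Both ferritin transcripts were thus far above the rest in each rat, and the heavy subunit was above the light subunit in each rat.

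**Figure D1:**
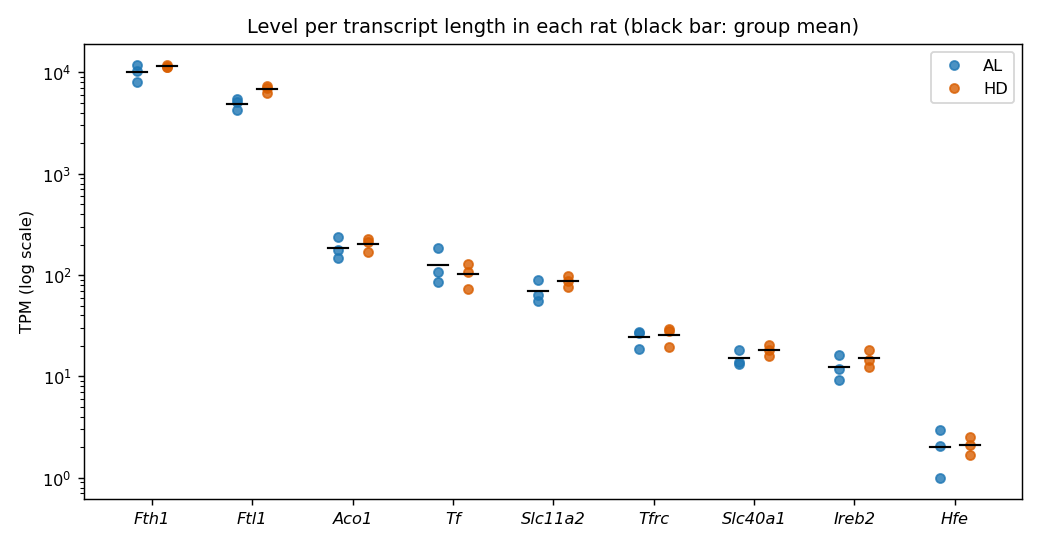
Level of 9 iron genes in each rat as TPM on a log scale, ordered by the mean over 6 rats, with the AL rats in blue, the HD rats in orange and the group means as black bars. Fth1 (10777 TPM) and Ftl1 (5900 TPM) lie far above Aco1 (194 TPM) and the others.

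For the comparison of the diets, the quasi-likelihood test of edgeR was run across all 11553 genes, with Benjamini-Hochberg adjustment and a threshold of 0.05 on the adjusted *P* value. None of the 9 tested iron genes passed this threshold (0 of 9), as was the case for all tested genes (0.0%), and DESeq2 passed 0 of the 9 and 1.58% of all genes. Without adjustment, at *P* below 0.05, edgeR gave 2 of the 9, Ftl1 and Slc11a2, both higher with HD, where 4.66% of the tested genes met that level in this direction and 10.6% in either. DESeq2 also gave 2 at that value, against 11.5% of all genes. Without rat 88 or without rat 64, edgeR gave 0 of the 9 at that value. The log2 fold change was above 0 in 8 of the 9 genes, against 51.3% of all genes, and ranged from -0.23 to 0.56. Its median over the 9 genes was 0.26, where the median of all tested genes was 0.0067. Scaling by library size alone moved both medians down, to 0.18 and -0.074. Each HD rat was above each AL rat in 2 of the 9 genes (7.25% of all genes), or in 1 with library size alone (4.09% of all genes), and the reverse was seen in 0 of the 9 (7.01% of all genes). The labels name no batch.

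**Figure D2:**
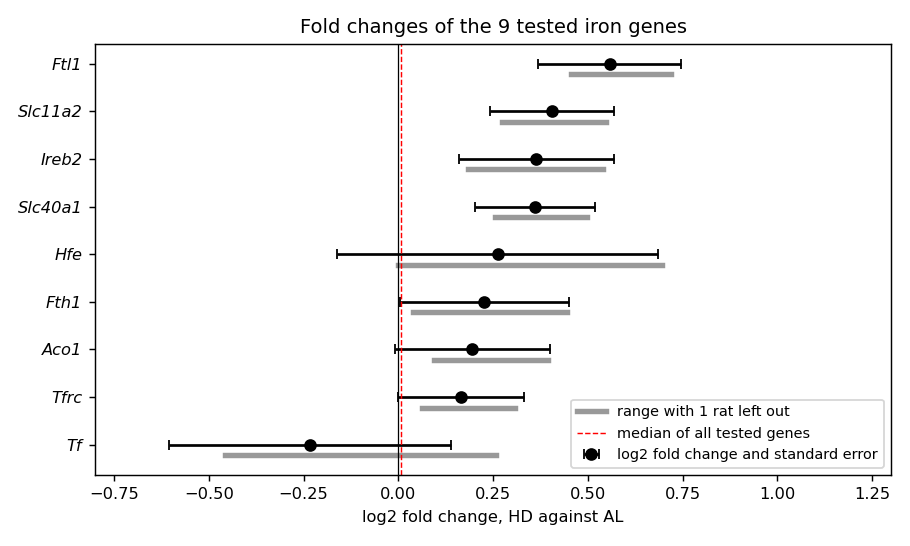
Log2 fold change of HD against AL for the 9 tested iron genes, with the standard error from edgeR (black) and the range when each rat was left out in turn (grey), the red dashed line marking the median of all tested genes. Ftl1 (0.56) and Slc11a2 (0.41) are highest, and Tf (-0.23) is the only gene below 0.

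Ferritin stores iron, and its light subunit (Ftl1, chromosome 1, 102527136 to 102528980, 4 exons, in build rn5 as for all gene positions given here) helps the iron core to form inside the shell. Normalized CPM (counts scaled to a common library total with edgeR's TMM method) of Ftl1 in AL rats 61, 71 and 88 were 3294, 2572 and 2292. In HD rats they were 4170 in rat 64, 4430 in rat 67 and 3414 in rat 69. Each HD rat was above each AL rat, and this was so in CPM, in TPM and in counts scaled by library size alone. edgeR estimated a log2 fold change of 0.56 (SE 0.19, unadjusted *P* = 0.020, adjusted *P* = 0.406), and DESeq2 gave an adjusted *P* value of 0.0985. Leaving out single rats gave 0.46 to 0.72. RefSeq lists 21 copies or pseudogenes named after Ftl1 in build GRCr8, so the assignment of reads to this gene is uncertain.

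The heavy subunit (Fth1, chromosome 1, 232979122 to 232981410, 4 exons) holds the ferroxidase center that oxidizes iron for storage. Its normalized CPM were 6519 (rat 61), 3681 (rat 71) and 5088 (rat 88) for AL, and 6233, 6154 and 5504 in HD rats 64, 67 and 69. The highest value was that of an AL rat, and the groups overlapped. The AL rats spread more widely (5096 ± 1419 CPM, SD, n = 3) than the HD rats (5964 ± 400, SD, n = 3). On the log2 scale HD differed from AL by 0.23 (SE 0.22, adjusted *P* = 0.786, by edgeR). The value lay between 0.04 without rat 71 and 0.44 without rat 61. The span of Fth1 overlaps that of Fads2, with no shared exon bases, and RefSeq lists 6 copies or pseudogenes named after Fth1.

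Within each rat, the ratio of the heavy to the light ferritin transcript was taken from the TPM. It was 2.20 (rat 61), 1.59 (rat 71) and 2.46 (rat 88) for AL, and 1.66 in rat 64, 1.54 in rat 67 and 1.79 in rat 69 for HD. Rats 61 and 88 stood above the HD rats, and rat 71 lay among them. Its log2 value was 1.03 ± 0.33 for AL and 0.73 ± 0.11 for HD (SD, n = 3 each), a difference of -0.30 (two-sided exact permutation test, *P* = 0.3). The difference was -0.17 without rat 88 and -0.49 without rat 71. With 3 rats in each group, this test cannot give a *P* value below 0.1.

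**Figure D3:**
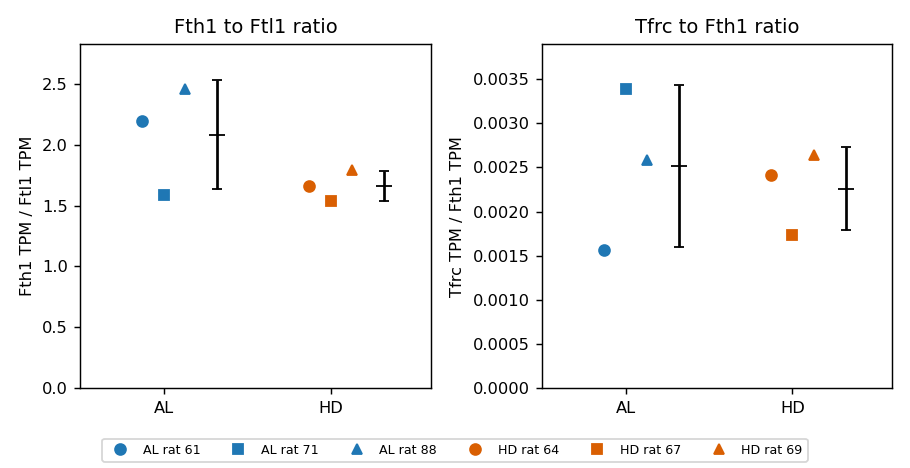
Ratio of Fth1 to Ftl1 TPM (left) and of Tfrc to Fth1 TPM (right) in each rat, with the mean and SD of each group in black. The Fth1 to Ftl1 ratio is between 1.54 and 1.79 in the HD rats and between 1.59 and 2.46 in the AL rats, and the groups overlap in both panels.

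Slc11a2, also called DMT1, carries ferrous iron and other divalent metals across membranes. Its normalized CPM were 193 (rat 61), 224 (rat 71) and 150 (rat 88) for AL, and 258 in rat 64, 227 in rat 67 and 267 in rat 69 for HD. Each HD rat was above each AL rat on this scale. In TPM and in counts scaled by library size alone the groups overlapped, since rat 71 then lay above rats 64 and 67. In edgeR, the log2 difference was 0.41 (SE 0.16, unadjusted *P* = 0.0396, adjusted *P* = 0.454), and with library size alone it was 0.32 (adjusted *P* = 0.586), no longer below 0.05 without adjustment. The files list 1 transcript of this gene (chromosome 7, 139837654 to 139870637, 16 exons), so its isoforms with and without an iron-responsive element cannot be told apart.

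Tfrc, the receptor for transferrin-bound iron (chromosome 11, 74479841 to 74502561, 19 exons), had normalized CPM of 62.4, 76.4 and 80.8 in AL rats 61, 71 and 88. HD rats 64, 67 and 69 had 92.3, 65.3 and 89.0. Rats 64 and 69 were above the AL group, and rat 67 lay within it. edgeR estimated a log2 fold change of 0.17 (SE 0.17, adjusted *P* = 0.792). The value was 0.0799 with library size alone and ran from 0.0635 without rat 61 to 0.31 without rat 67. The ratio of Tfrc to Fth1 in TPM, the receptor against the storage subunit, was between 0.00156 and 0.00339 in the AL rats and between 0.00173 and 0.00264 in the HD rats. On the log2 scale it differed by -0.10 (*P* = 0.9 by the exact permutation test, two-sided), and the HD range lay inside the AL range. This difference turned positive, to 0.15, without rat 71 and, to 0.077, without rat 67.

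Transferrin (Tf, chromosome 8, 111085984 to 111112688, 17 exons) carries iron in plasma and comes mainly from the liver. Its normalized CPM were 292 (rat 61), 142 (rat 71) and 121 (rat 88) for AL, and 167, 202 and 103 in HD rats 64, 67 and 69. Rat 61 stood above the others, and the remaining rats of both groups were mixed. On the log2 scale HD differed from AL by -0.23 (SE 0.37, adjusted *P* = 0.886, by edgeR). The value turned to 0.26 without rat 61 and to 0.00401 without rat 69. The 6 hepatocyte markers, which include albumin (Alb), summed to between 2.11 and 3.84 CPM in all rats, far below Tf itself.

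Slc40a1, ferroportin, is the iron exporter of the cell (chromosome 9, 52560181 to 52578109, 8 exons). Its normalized CPM were 29.9 (rat 61), 34.2 (rat 71) and 27.9 (rat 88) for AL, and 45.1 in rat 64, 41.2 in rat 67 and 32.1 in rat 69 for HD. Rats 64 and 67 were above the AL group, and rat 69 was below rat 71. In edgeR, the log2 difference was 0.36 (SE 0.16, unadjusted *P* = 0.0543, adjusted *P* = 0.477). Leaving out rats in turn gave 0.26 to 0.50.

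Hepcidin was at the limit of detection. Hamp (chromosome 1, 90523534 to 90525473, 3 exons) had 1 estimated count in rat 61, 1 in rat 71 and 0 in the other 4 rats. A count of 0 allows up to 3 counts, which is between 0.0985 and 0.240 CPM in the rats at 0, for counting error only. No difference in Hamp was detectable at this depth.

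Hfe, a protein related to MHC class I molecules that binds the transferrin receptor and takes part in iron sensing (chromosome 17, 45515737 to 45523531), was also low. Its normalized CPM were 1.03 (rat 61), 1.61 (rat 71) and 2.71 (rat 88) for AL, and 2.12, 1.75 and 2.56 in HD rats 64, 67 and 69, from 13 to 80.1 estimated counts. The HD rats all lay inside the range of the AL rats. edgeR estimated a log2 fold change of 0.26 (SE 0.42, adjusted *P* = 0.886), which was -0.000319 without rat 61. Of its 3 listed transcripts, NM_053301 took 178 of the estimated counts over 6 rats, NM_001173435 34.1 and NM_001173434 11.0.

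The iron regulatory proteins differ in how they sense iron. Aco1 (chromosome 5, 60972013 to 61027705, 21 exons) is a cytosolic aconitase when it holds an iron-sulfur cluster and binds RNA when it does not, while Ireb2 (chromosome 8, 58039175 to 58083277, 22 exons) is degraded when iron is plentiful. Aco1 had normalized CPM of 349, 353 and 501 in AL rats 61, 71 and 88 and 521, 500 and 357 in HD rats 64, 67 and 69. Ireb2 had 21.0, 31.4 and 24.4 in the AL rats and 41.0, 28.1 and 30.2 in the HD rats, in the same order. Both genes overlapped between the groups. In Aco1, rat 88 of the AL group lay among the HD rats, and rats 67 and 69 of the HD group lay among the AL rats. The log2 fold changes were 0.20 (standard error 0.20, adjusted *P* = 0.803) for Aco1 and 0.36 (standard error 0.20, adjusted *P* = 0.584) for Ireb2, from edgeR. With single rats left out, the value for Aco1 ran from 0.0952 (without rat 64) to 0.40 (without rat 88), and that for Ireb2 from 0.18 (without rat 64) to 0.54 (without rat 71).

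**Figure D4:**
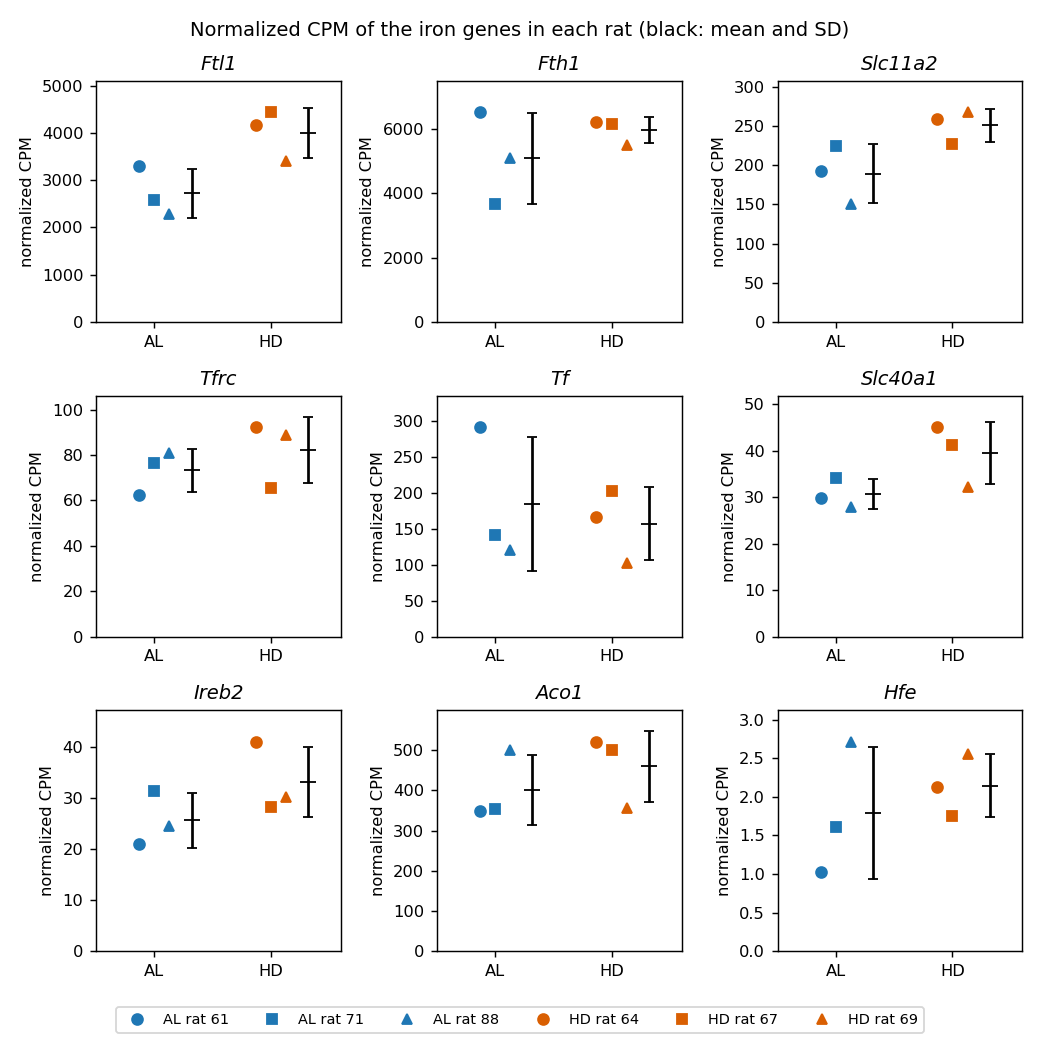
Normalized CPM of the 9 tested iron genes in each rat, with each axis starting at 0 and the mean and SD of each group in black. The HD rats lie above the AL rats in Ftl1 (3414 to 4430 against 2292 to 3294 CPM) and by a narrow gap in Slc11a2 (227 against 224), and the groups overlap in the other 7 genes.

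The wider pathway was described with 7 lists of genes, for reductases and ferroxidases, other carriers, chaperones, hepcidin control, iron-sulfur clusters, haem synthesis, and haem transport and breakdown. They held 80 tested genes, of which edgeR passed 0 at the adjusted threshold and 9 at an unadjusted *P* value below 0.05, 5 higher and 4 lower in the HD group. Of all 11553 genes, the shares at that value were 4.66% higher and 5.94% lower. DESeq2 passed 3 of the 80 genes at the adjusted threshold, Cp, Hfe2 and Cpox, and 1.58% of all genes. Of these, Hfe2 reached the count minimum only in rat 69 of the HD group. The 80 genes had a median log2 fold change of 0.10 and 51 of them were higher with HD, where 51.3% of all genes were. With library size alone, 43 were higher and their median was 0.029, where the median of all tested genes was -0.074. Each HD rat was above each AL rat in 6 genes (7.25% of all genes) and below in 3 (7.01% of all genes).

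Ferroxidases load iron onto transferrin after its export, and reductases prepare it for import. Of the 7 tested genes of this list, 5 were lower in the HD group and 3 had an unadjusted *P* value below 0.05 in edgeR, all lower. Of all genes, 51.3% were higher with HD, and 5.94% were lower at that value. Ceruloplasmin (Cp), the ferroxidase of plasma, had normalized CPM of 20.2, 86.8 and 78.3 in AL rats 61, 71 and 88 and 11.0, 18.0 and 22.6 in HD rats 64, 67 and 69. Rat 61 lay within the HD group, and the other AL rats stood far above it. On the log2 scale HD differed from AL by -1.83 (SE 0.52, adjusted *P* = 0.398, by edgeR, and adjusted *P* = 0.0104 by DESeq2). Hephaestin (Heph), its membrane-bound relative, had 7.55, 16.5 and 11.8 CPM in the AL rats and 4.24, 4.15 and 7.19 in the HD rats. Here each HD rat was below each AL rat (7.01% of all genes), by a narrow gap of 7.19 against 7.55 CPM. The log2 difference was -1.19 (SE 0.35, edgeR adjusted *P* = 0.401). Steap4, a metalloreductase, had 8.58, 30.7 and 43.0 CPM in the AL rats and 1.02, 4.85 and 8.89 in the HD rats, again with rat 61 inside the HD range (log2 difference -2.42, SE 0.76, edgeR adjusted *P* = 0.406).

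Markers of macrophages differed between the groups in the same direction as these 3 genes. All 10 tested macrophage markers were lower with HD, and their log2 fold changes had a median of -1.44. In edgeR, 8 had an unadjusted *P* value below 0.05, where 5.94% of all genes were lower at that value. DESeq2 passed 2 of the 10 at the adjusted threshold (1.58% of all genes). Each HD rat was below each AL rat in 2 of them, Lyz2 (-2.30) and Aif1 (-1.47), as in 7.01% of all genes. The groups overlapped in others, among them C1qc (-1.56) and Csf1r (-1.19). The 12 markers in the files summed to between 149 and 511 CPM in the AL rats, lowest in rat 61, and to between 56.2 and 134 CPM in the HD rats, and none was at 0 throughout. Rat 61 was also the lowest AL rat in the summed markers of endothelium, podocytes and red cells. It was the highest AL rat in those of the proximal tubule, the distal nephron and hepatocytes. Endothelial markers were lower with HD too, in 5 of 6 genes. The part of any of these cell types in the lower Cp, Heph and Steap4 was not tested. In bulk kidney RNA, fewer cells of a type and less RNA per cell cannot be told apart.

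The genes that control hepcidin included the lowest *P* value of the 7 lists in edgeR, while DESeq2 gave lower values to Cpox and Cp. Hemojuvelin, listed as Hfe2 and known as a coreceptor of bone morphogenetic proteins, had normalized CPM of 0.159, 0.166 and 0.132 in rats 61, 71 and 88 and of 1.02, 1.199 and 1.41 in rats 64, 67 and 69. Each HD rat was above each AL rat (7.25% of all genes). The estimated counts were 2.01 to 3.03 in the AL rats and 12.01 to 44.3 in the HD rats. In edgeR, the log2 difference was 2.94 (SE 0.50, adjusted *P* = 0.327, and 0.0357 from DESeq2). The other 11 tested genes of the list had unadjusted *P* values above 0.05. The list had a median of 0.06, which turned to -0.04 in library size scaling, where 5 of its 12 genes were higher in place of 9. The median of all tested genes was -0.074 in that scaling, and 51.3% of all genes were higher in the main fit.

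In mitochondria, iron is built into iron-sulfur clusters and haem. Of the 27 tested genes of mitochondrial iron and iron-sulfur clusters, 21 were higher with HD (19 when scaled by library size alone). In the main fit, 51.3% of all genes were higher. The list had a median of 0.16, where that of all tested genes was 0.0067. With library size alone these medians were 0.08 and -0.074. None of the 27 genes passed the adjusted threshold in edgeR or DESeq2. In edgeR, 3 had an unadjusted *P* value below 0.05, all higher (4.66% of all genes in this direction). This count was 0 with library size alone, 0 without rat 88, 0 without rat 64 and 1 with DESeq2. Among them, the mitochondrial transporter Abcb8 had 44.7 ± 4.35 CPM for AL and 54.7 ± 2.59 for HD (SD, n = 3 each, log2 fold change 0.29), and the iron importer Slc25a37 had 7.93 ± 0.582 and 10.9 ± 1.73 CPM (log2 fold change 0.46). In both genes, each HD rat was above each AL rat in normalized CPM (7.25% of all genes), with adjusted *P* values from edgeR of 0.433 and 0.466. In counts scaled by library size alone, the groups overlapped in Abcb8, since rat 71 then lay above rats 64 and 67.

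Haem synthesis was described with 9 tested genes, 8 higher with HD (6 when scaled by library size alone) and 1, Cpox, lower. In the main fit, 51.3% of all genes were higher. The median of all tested genes moved from 0.0067 to -0.074 with library size alone. Coproporphyrinogen oxidase (Cpox), which acts late in the pathway, had normalized CPM of 92.2, 76.99 and 112 in rats 61, 71 and 88 and of 44.6, 60.2 and 45.5 in rats 64, 67 and 69. Each HD rat was below each AL rat (7.01% of all genes). edgeR estimated a log2 fold change of -0.90 (SE 0.18, adjusted *P* = 0.338, and 0.00256 from DESeq2), with a range of -1.06 to -0.75 when rats were left out singly. The other 8 genes had log2 fold changes of at most 0.40 and unadjusted *P* values above 0.05.

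Haem carried into the cell or freed from hemoproteins is broken down by haem oxygenase, which releases iron. Of the 11 tested genes of haem transport and breakdown, 5 were higher with HD and 6 lower, where 51.3% of all genes were higher. Slc48a1, a haem transporter of lysosomes, had an unadjusted *P* value below 0.05 in edgeR and was higher, as were 4.66% of all genes at that value. Its normalized CPM were 51.8, 53.6 and 43.4 in rats 61, 71 and 88 and 67.1, 70.4 and 95.6 in rats 64, 67 and 69. Thus each HD rat was above each AL rat (7.25% of all genes). On the log2 scale HD differed from AL by 0.65 (SE 0.17, adjusted *P* = 0.390, by edgeR, and 0.0567 from DESeq2). Hmox1, the inducible haem oxygenase, named here after its value was seen, had a log2 fold change of 0.56 with an unadjusted *P* value of 0.319.

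**Figure D5:**
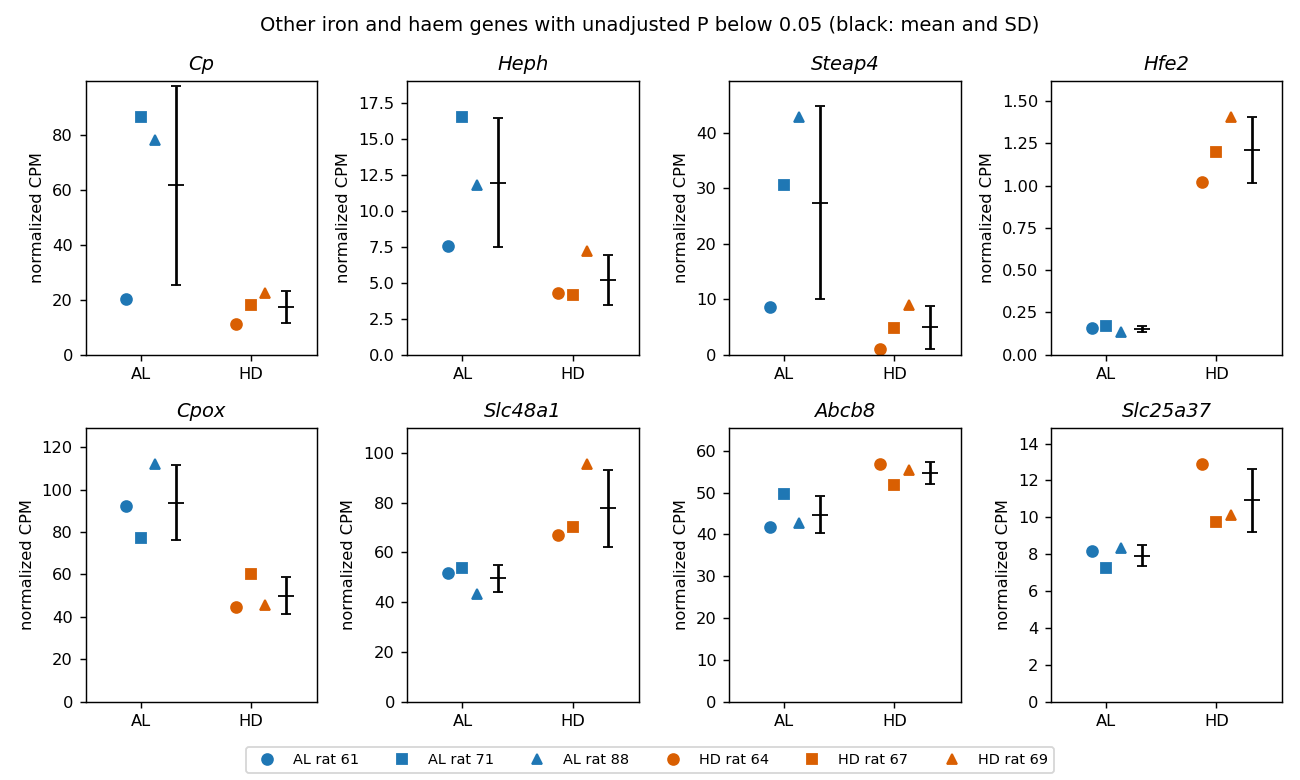
Normalized CPM in each rat for 8 genes of the wider iron and haem lists with an unadjusted *P* value below 0.05, with the mean and SD of each group in black. Cp, Heph, Steap4 and Cpox are lower in the HD group on average, with rat 61 inside the HD range for Cp and Steap4, and the other 4 are higher in each HD rat.

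The remaining lists held no gene at an unadjusted *P* value below 0.05. Of 9 other carriers and receptors, Mcoln1, a lysosomal channel that passes iron, had the lowest *P* value, with a log2 fold change of 0.24 (unadjusted *P* = 0.137). Of 5 genes of iron chaperones and ferritin turnover it was Cul1, a subunit of the ubiquitin ligase that acts with the iron sensor Fbxl5, with 0.14 (unadjusted *P* = 0.281). The medians of these lists were -0.0050 and -0.03.

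Markers of other cell types were measured in the same libraries. The markers of the proximal tubule, a segment of the nephron, summed to between 21508 and 24337 CPM in the AL rats and between 23393 and 27177 in the HD rats. Of 9 tested proximal tubule markers, 7 were higher in the HD group and 2, Cubn (-0.046) and Kap (-0.057), were lower, with a median log2 fold change of 0.24. In edgeR, 3 had an unadjusted *P* value below 0.05, all higher (Slc13a3 with a log2 fold change of 0.82, Slc22a6 with 1.07 and Slc34a1 with 0.70). Of all tested genes, 4.66% were higher at that value. Markers of red cells and reticulocytes, which carry hemoglobin, were higher in 7 of 7 tested genes (51.3% of all genes). They had a median of 0.72, with Hba2 (0.85), Hba1 (0.72) and Epb42 (1.12) among them. Epb42 reached the count minimum only in rat 69 of the HD group. The sum of the 10 red cell markers was 733 to 1136 CPM in the AL rats and 1060 to 1903 in the HD rats. The groups overlapped through rats 71 and 69, and none of these markers was at 0 throughout. The part of either cell type in the values of Ftl1, Slc11a2 and the other iron genes was not tested.

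Among the genes reaching 30 counts in 1 or more rats, no marker passed the adjusted threshold in edgeR with all rats. With a minimum of any count above 0 in 1 or more rats, the podocyte marker Nphs1 passed it (adjusted *P* = 0.0421), as it did without rat 64 (0.0289), and Slc12a3 passed it without rat 67 (0.0222). DESeq2 passed 3 of 6 podocyte, 2 of 9 proximal tubule, 2 of 10 macrophage, 1 of 11 distal nephron and 1 of 7 red cell markers, where it passed 1.58% of all genes. Podocyte markers were higher in 6 of 6 genes (51.3% of all genes), with Nphs1 (log2 fold change 2.35), Wt1 (2.75) and Ptpro (2.51) at an unadjusted *P* value below 0.05 in edgeR (4.66% of all genes in this direction). They summed to between 48.9 and 119 CPM in the AL rats and between 130 and 282 in the HD rats. Of 11 markers of the loop of Henle and distal nephron, 4 were higher and 7 lower, with a median of -0.05 and a sum of 7445 to 8193 CPM in the AL rats and 5975 to 7946 in the HD rats. Without adjustment, 5 of them had an edgeR *P* value below 0.05 (10.6% of all genes), Slc12a3 (2.93) and Calb1 (2.05) with each HD rat above each AL rat, and Slc4a1 (-0.56), Slc12a1 (-0.86) and Aqp3 (-0.41) with each HD rat below. Of the 6 endothelial markers, 5 were lower and 1, Kdr (0.36), higher, with a median of -0.33 and the lowest *P* value in Tek (-0.89, unadjusted *P* = 0.0956). They summed to between 103 and 277 CPM in the AL rats and between 80.2 and 255 in the HD rats. Only 2 of the 6 hepatocyte markers were tested, both higher in the HD group. Of these, Alb had the lowest *P* value in edgeR (log2 fold change 1.46, unadjusted *P* = 0.138), and it reached 30 counts only in rat 69 of the HD group. The part of these cell types in the iron genes was not tested.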

How the data were processed

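Kidney RNA of 6 rats (3 AL, 3 HD, grouped by the diet in the labels) was selected for poly(A) and sequenced without strand information, as 1 library per rat. The authors assigned the reads to transcripts of build rn5 with RSEM 1.1.15 (version from the submitters' processing notes) and deposited estimated counts, which are not normalized, posterior means of these counts, and TPM and FPKM values scaled by RSEM to transcript length and depth. Filters on the reads are not given in the sources used here.

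Estimated counts were summed per gene and rounded. Genes reaching 30 counts in 1 or more rats were tested with edgeR 4.0.16 (R 4.3.3, quasi-likelihood, TMM, diet as the only factor), with Benjamini-Hochberg adjustment over 11553 genes. The standard error was the absolute log2 fold change divided by the square root of F. DESeq2 1.42.0 was an alternative. Ratios used deposited TPM values, with FPKM values as an alternative, and an exact permutation test over 20 assignments. The edgeR step was tested on simulated counts. Alternatives also covered normalization, count minimum, posterior means, robust fitting and each rat left out. Estimated counts can be shared between near-identical genes, and intervals cover counting error only.

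The iron genes and the lists were chosen with earlier results of these data known. Named genes are the 10 iron genes and, per list, up to 4 genes with an unadjusted *P* value below 0.05, or else the gene with the lowest. Aqp3, Cubn, Kap, Kdr and Hmox1 are named in addition, outside this rule. For 1 gene that the rule names, the values are not reported here. Plots were made with Python 3.11.15 and matplotlib 3.10.9.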

Additional observations from a re-analysis of the deposited data

How the results depend on the processing

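The direction of the log2 fold change and the side of the adjusted threshold held for 114 of 117 values of the 9 iron genes over 13 alternative fits, and the lowest adjusted *P* value of an iron gene was 0.0985. The exceptions were Tf, which turned to 0.258 without rat 61 and to 0.00401 without rat 69 (range -0.457 to 0.258 with each rat left out), and Hfe, with -0.000319 without rat 61 (range -0.000319 to 0.697). No tested gene passed in the main edgeR fit (lowest adjusted *P* value 0.098), so the unchanged side of the threshold says little about these genes. The log2 difference of the Tfrc to Fth1 ratio ranged from -0.412 to 0.146 with each rat left out and was above 0 without rat 71 (0.146) and rat 67 (0.077). The number of iron genes at an unadjusted *P* value below 0.05 was 2, but 1 with library size alone and 0 to 3 with each rat left out (0 without rat 88 or rat 64). Their median log2 fold change of 0.262 was 0.177 with library size alone and 0.194 to 0.353 with each rat left out. In the pathway lists, DESeq2 passed 3 genes at the adjusted threshold where edgeR passed 0. The 5 genes higher at an unadjusted *P* value below 0.05 became 2 with library size alone, 3 when every rat had to reach 10 counts, 3 with DESeq2 and 2 to 9 with each rat left out (9 without rat 61, 2 without rat 88 or rat 64). The causes were not tested. Depth limits Hamp, Hfe and Hfe2. No paired analysis was possible because the labels give the groups no shared replicate numbers.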
